A study of Mus musculus with 3 samples.

Results

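The STEAP metalloreductases and the proteins that carry copper into, through and out of cells were examined in the mouse choroid plexus epithelium (CPE), the epithelial layer that makes cerebrospinal fluid. The set held 9 genes, Steap1, Steap2, Steap3, Atp7a, Atp7b, Slc31a1, Slc31a2, Atox1 and Ccs, of 27845 genes or transcripts named in the scanner files. They were measured by 17 of 41174 probes, all probes that carried 1 of these names. The genes were chosen from earlier results of the same arrays, among them the high CPE over reference ratio of Steap1. The ratios below are therefore a description. No p is given for them, and where a member is said to pass a threshold, that only labels its ratio by the rule used for all genes and is no evidence for it.

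The STEAP proteins other than STEAP1 are membrane reductases that turn ferric iron and cupric copper into their reduced forms, which transporters can take up. SLC31A1, also called CTR1, brings reduced copper into the cell. The chaperone ATOX1 then hands it to the copper ATPases ATP7A and ATP7B in the secretory pathway, and the chaperone CCS hands it to superoxide dismutase 1. The choroid plexus forms the barrier between blood and cerebrospinal fluid and takes part in the handling of copper and iron in the brain.

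CPE cells of 3 healthy adult female C57BL/6 mice, each 1 sample, had been cut by laser dissection from frozen brain sections. Their amplified RNA was labelled with Cy5 and hybridised, each mouse on an array of its own, against a common reference RNA of C57BL/6 retinal pigment epithelium (RPE) and choroid labelled with Cy3. The dyes were not swapped, so that dye bias and tissue cannot be told apart in a ratio. The 3 mice form 1 group, with no treatment.

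Between 46% and 85.6% of probes were well above background in the CPE channel of an array, and the background level that the scanner software fitted was 363 intensity units in the CPE channel of mouse 3 against 81.2 and 82.6 in mouse 1 and mouse 2. Of the CPE markers, 9 of 10 tested were higher in CPE, and all 10 lay above the 90th percentile of CPE intensity. RPE and melanocyte markers were lower in CPE for 8 of 9 genes, photoreceptor markers for 5 of 5, neuron markers for 3 of 4, stroma markers for 4 of 4, macrophage markers for 3 of 4 and red blood cell markers for 3 of 3, while 0 of 4 endothelium markers passed. Of the endothelium markers, Pecam1 stood at a log2 ratio of 0.95 and Cdh5 at 0.94, both under 2-fold, Kdr at -0.19 and Cldn5 at -0.54. The highest of these markers in CPE lay at the 93.1 percentile for RPE and melanocytes (Pmel), at 93.6 for photoreceptors (Gnat1), at 79.4 for neurons (Snap25), at 98.3 for stroma (Dcn), at 97.8 for macrophages (Lyz2), at 97.1 for endothelium (Kdr) and at 99.3 for red blood cells (Hba-a1). The part of other cell types in the ratios below was not tested. In tissue RNA of this kind, more cells of a type and more RNA per cell cannot be told apart.

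A gene passed the threshold when its adjusted p was under 0.05 and its mean ratio was at least 2-fold, taking the brightest probe of each gene. That rule labelled 5 of the 8 members it could be applied to as higher in CPE (Steap1, Slc31a1, Steap2, Atox1 and Atp7a) and 1 as lower (Slc31a2). Of all 18280 named genes tested, 7.93% were higher and 11.0% were lower; since the members were chosen on this contrast, nothing is read from that difference. The median log2 ratio was 1.18 over the 8 tested members and -0.042 over the 18280 genes. The scanner software flagged all 8 as well above background in CPE and reference on the 3 arrays, Atp7b by a small margin in mouse 3, and Steap3 was too dim to test.

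**Figure D1:**
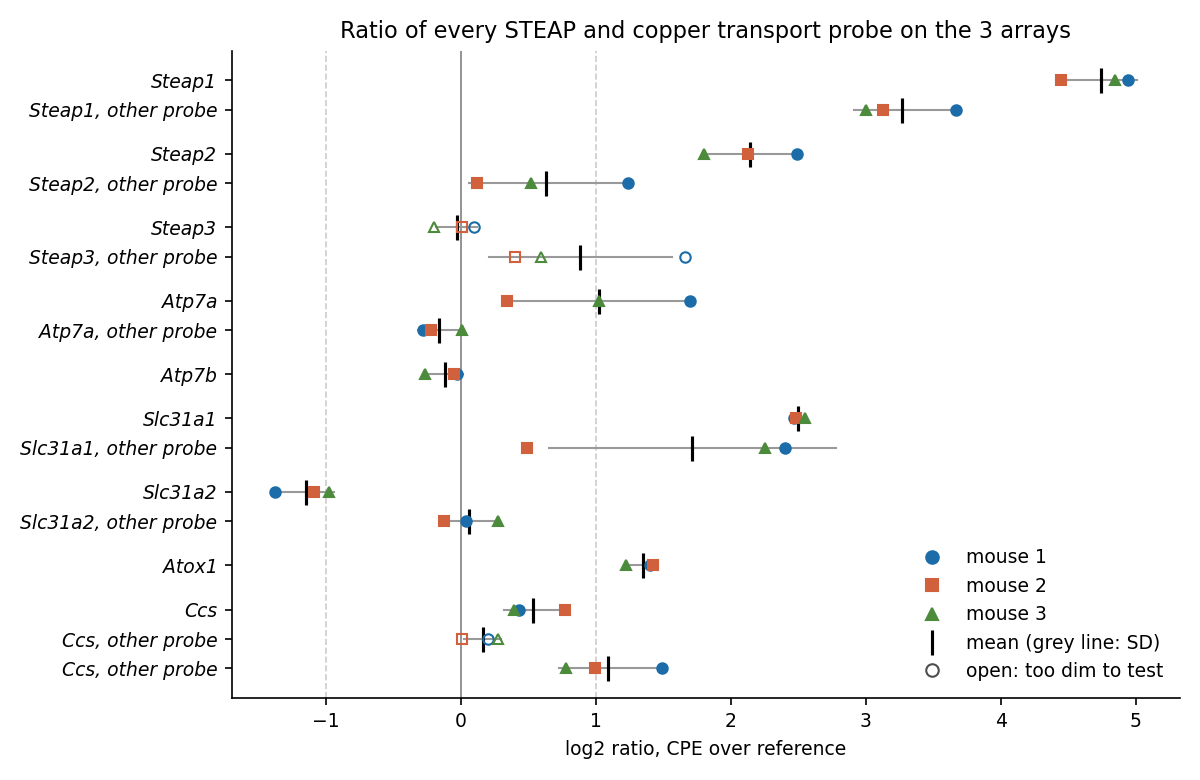
Log2 ratio of CPE over reference (x axis) for each of the 17 probes (y axis), with 1 symbol per mouse, a black tick for the mean and a grey line for the SD over 3 arrays; open symbols mark probes too dim to test, and dashed lines mark 2-fold. Both Steap1 probes lie at or above a log2 ratio of 3.00 in all 3 mice, while the probes of Slc31a2, Atp7a and Ccs differ among themselves.

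Steap1, which encodes the STEAP protein that lacks the NADPH-binding domain of its relatives, had the highest ratio of the set. The raw CPE intensity of its brightest probe (chr5:5742375-5742434, minus strand, mouse build mm8) was 28912, 22416 and 25216 in mouse 1, 2 and 3, against 453, 664 and 601 in the reference. The channels did not overlap on any array. The log2 ratio was 4.94, 4.45 and 4.85, a mean of 4.75 ± 0.26 (SD, n = 3) or 26.9-fold. Only 2 of 11424 genes with a symbol, measured in both channels on all arrays, had a higher mean ratio. Names such as accessions and those of the Rik, LOC or Gm type were left out of this ranking. A second Steap1 probe, 3998 bases to the 5′ side, gave 3.67, 3.13 and 3.00 in the same mice, again higher in CPE in every mouse.

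The promoter windows of Steap1, Slc31a1 and Atp7a are shown because all 3 genes were higher in CPE and their windows differ in the letters of the metal response element, the site of the zinc sensor MTF1. Each runs from 250 bases before to 50 bases after the start of the gene in RefSeq on build GRCm38.p6, a different build from that of the probes. Steap1 lies at chr5:5749268-5749567 (minus strand), Slc31a1 at chr4:62360451-62360750 (plus strand) and Atp7a at chrX:106026974-106027273 (plus strand). Capitals mark the core of that element, TGCACNC or TGCGCNC, searched on both strands.
Steap1: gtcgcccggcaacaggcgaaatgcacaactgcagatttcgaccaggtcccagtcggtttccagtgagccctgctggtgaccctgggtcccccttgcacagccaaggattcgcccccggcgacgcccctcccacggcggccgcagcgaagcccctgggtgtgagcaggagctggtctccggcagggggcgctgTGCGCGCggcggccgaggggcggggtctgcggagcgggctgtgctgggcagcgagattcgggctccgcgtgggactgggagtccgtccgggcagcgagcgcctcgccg
Slc31a1: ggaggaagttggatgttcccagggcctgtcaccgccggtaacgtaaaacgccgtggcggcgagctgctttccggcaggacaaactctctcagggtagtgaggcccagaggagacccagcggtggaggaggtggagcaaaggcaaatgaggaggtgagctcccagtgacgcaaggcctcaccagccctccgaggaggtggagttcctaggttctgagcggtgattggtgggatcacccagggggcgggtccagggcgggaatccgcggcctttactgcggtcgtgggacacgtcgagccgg
Atp7a: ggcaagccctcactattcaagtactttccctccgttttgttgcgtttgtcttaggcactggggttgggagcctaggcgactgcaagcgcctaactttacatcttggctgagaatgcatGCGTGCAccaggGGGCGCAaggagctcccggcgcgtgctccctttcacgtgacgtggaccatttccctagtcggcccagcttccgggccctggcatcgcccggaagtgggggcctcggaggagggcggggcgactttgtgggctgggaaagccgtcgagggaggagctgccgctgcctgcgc
The Steap1 window held 1 core, which began 58 bases before the start, and the Atp7a window held 2, at 132 and 120 bases before it. The Slc31a1 window held 0. At least 1 core stood in 25.7% of the 32851 promoter windows of the same length, and 2 or more in 7.11%. Windows were given for 8 of the 9 members, 13 in all, and 5 windows of 5 members held a core (Steap1, Steap2, Atp7a, Atp7b and Slc31a2). The core of the antioxidant response element, TGACNNNGC, stood in 12.4% of all windows and in 1 window each of Steap2, Slc31a2 and Atox1. These matches describe letters only.

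Steap2, a ferric and cupric reductase of endosomes and the cell surface, was next in the family. The raw CPE intensity of its brightest probe was 3566, 1869 and 2889, against 365, 377 and 535 in the reference. Its log2 ratio was 2.49, 2.13 and 1.80, a mean of 2.14 ± 0.35 or 4.41-fold, below that of Steap1 in each mouse. A second Steap2 probe, 10620 bases to the 5′ side, gave 1.24, 0.12 and 0.52 and did not pass. It was not well above background in the CPE of every mouse, and its raw intensity was lowest in mouse 2, at 92.5, and highest in mouse 3, at 740.2. Both Steap2 probes were designed on a cDNA clone.

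Steap3, the ferrireductase of the transferrin cycle in erythroid cells, was near the background. Its brightest probe was well above background in 1 of the 3 CPE samples and on 1 array in the reference, with log2 ratios of 0.097, 0.0032 and -0.20. A second probe gave 1.66, 0.40 and 0.59 and was also too dim to test. A level of Steap3 could therefore not be set apart from background at the sensitivity of these arrays.

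Steap4, the remaining family member, was not in the set. Its log2 ratio was 2.07, 1.15 and 1.06, a mean of 1.43 ± 0.56 (limma adjusted p = 0.00218), higher in CPE in all 3 mice. The raw CPE intensities were 706, 203 and 1088, against 152, 155 and 334 in the reference. Those reference values stood beside fitted backgrounds of 113, 112 and 236 units in that channel. A second Steap4 probe was too dim to test, with a mean of 0.60.

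The copper importer Slc31a1 was higher in CPE and its relative Slc31a2 was not. Slc31a1 had raw CPE intensities of 12251, 8395 and 6338 at its brightest probe, against 1025, 1002 and 694 in the reference. The log2 ratio was 2.47, 2.48 and 2.55, a mean of 2.50 ± 0.045 or 5.65-fold, the smallest SD of the set. The single channels varied more, with an SD of the normalized log2 intensity of 0.41 in CPE and 0.45 in the reference. Both channels were lowest in mouse 3. A second Slc31a1 probe, 1555 bases to the 3′ side, gave 2.40, 0.49 and 2.25. There mouse 2 stood apart from the other mice, while at the brightest probe it did not.

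Slc31a2, or CTR2, a relative of CTR1 in endosomes and lysosomes, had raw CPE intensities of 2025, 1614 and 2436 at its brightest probe, against 2513, 2385 and 2472 in the reference. After normalization its log2 ratio was -1.38, -1.09 and -0.98, a mean of -1.15 ± 0.21 or 2.22-fold lower in CPE. The second probe of Slc31a2, 704 bases to the 5′ side, gave 0.034, -0.13 and 0.27, so that the lower level in CPE was seen at 1 of its 2 probes. With the log ratios centred on the median in place of loess, the brightest probe stood at -0.47 and did not pass.

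Atox1, the chaperone that delivers copper to the ATPases, ranked high in both channels, at the 98.9 percentile of CPE and the 96.6 percentile of the reference. Its single probe had raw CPE intensities of 18351, 13492 and 11733, against 2930, 2937 and 2769 in the reference. The log2 ratio was 1.40, 1.42 and 1.22, a mean of 1.35 ± 0.11 or 2.55-fold, and the 3 mice lay close together.

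Atp7a, the ATPase that loads copper enzymes and exports copper, varied more between the mice. Its brightest probe had raw CPE intensities of 7973, 1998 and 5017, against 1152, 1171 and 1402 in the reference. Mouse 2 was low in CPE only, and the log2 ratio was 1.70, 0.34 and 1.02, a mean of 1.02 ± 0.68. The gene no longer passed without mouse 1, at 0.68, nor without mouse 3, at 1.02, nor with no background correction, at 1.00, nor with the ratio of the scanner software, at 1.12. A second probe named Atp7a, designed on a cDNA clone 95748 bases to the 5′ side, gave -0.28, -0.22 and 0.01.

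Atp7b, the copper ATPase best known from liver and Wilson disease, showed raw CPE intensities of 204, 118 and 435 against 213, 200.5 and 295 in the reference. The log2 ratio was -0.034, -0.053 and -0.27, a mean of -0.12 ± 0.13, and it did not pass. The 435 units of mouse 3 stood beside a fitted background of 363 units there.

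Ccs, the chaperone of superoxide dismutase 1, had log2 ratios of 0.43, 0.77 and 0.39 at its brightest probe, a mean of 0.53 ± 0.21. That mean was under 2-fold. A second Ccs probe, 8113 bases to the 5′ side, gave 1.49, 0.99 and 0.78, a mean of 1.08 ± 0.36, which passed, and another, 63065 bases to the 3′ side and designed on a cDNA clone, was too dim to test. With the log ratios centred on the median, the brightest Ccs probe rose to 1.13 and passed.

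Ordered by ratio, Steap1 stood above Slc31a1 with a gap of 2.25 ± 0.25 on the log2 scale and no overlap of the mice. Slc31a1 and Steap2 overlapped, as did Atox1 and Atp7a, and Atp7a and Ccs. The values of Steap2 and Atox1, and of Atp7b and Slc31a2, did not overlap. Steap3 was too dim to be placed in this order. A ratio compares a gene with itself in the reference, so this order is not an order of transcript amounts.

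**Figure D2:**
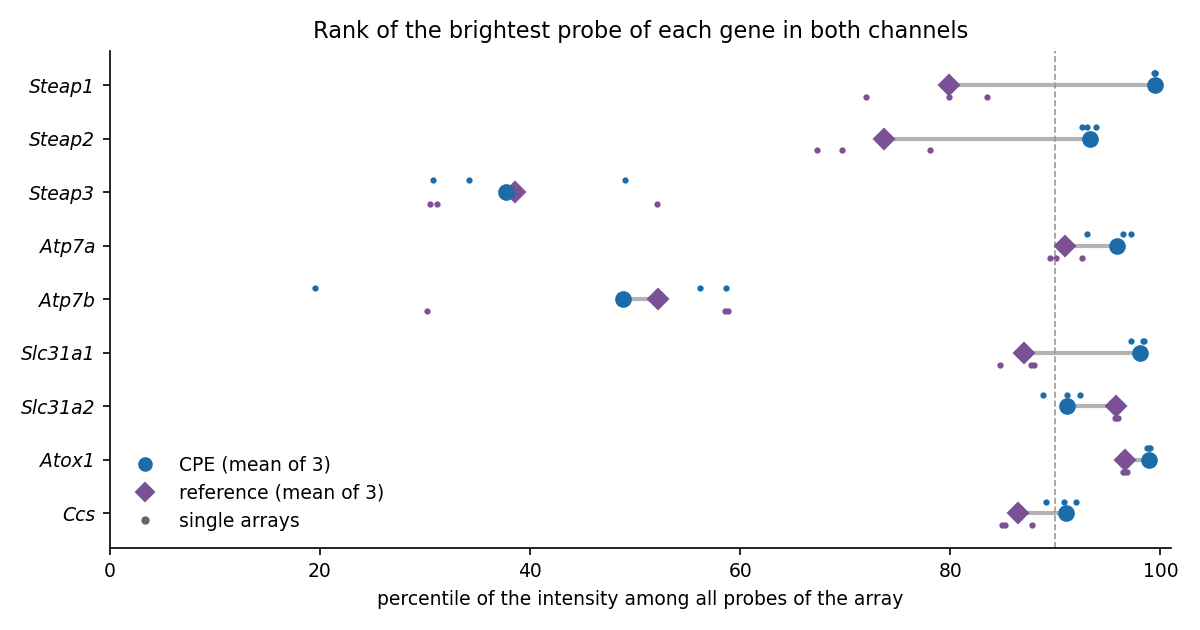
Percentile of the intensity of the brightest probe of each gene among all 41174 probes (x axis, 0 to 100), in CPE (circles) and in the reference (diamonds), each the mean of 3 arrays, with small points for single arrays and a dashed line at the 90th percentile. The mean of Steap1 in CPE is 99.5 and that in the reference 79.9; Slc31a2 stands higher in the reference, and Steap3 and Atp7b lie near or below the middle.

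In the expression classes of the study, which rank all probes of the CPE channel by intensity and call those above the 90th percentile high, 7 of the 9 members were high and 2 were low, with the brightest probe of each gene. Over all their probes, 9 of 17 were high, against 10.0% of all probes, and again nothing is read from that difference. Steap1 lay at the 99.5 percentile, Atox1 at 98.9, Slc31a1 at 98.1, Atp7a at 95.9, Steap2 at 93.3, Slc31a2 at 91.1 and Ccs at 91. Atp7b lay at 48.9, with single mice from 19.5 to 58.7, and Steap3 at 37.7. A probe's intensity depends on its sequence, so percentiles do not order the genes by abundance. When the percentiles of all probes of a gene were averaged, 3 members stayed in the high class, Steap1, Slc31a1 and Atox1.

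The spread between mice was described for the 8 tested members, each by its brightest probe. The median SD of their normalized log2 intensities was 0.23 in CPE and 0.16 in the reference, which is 1 RNA on 3 arrays, while over all probes measured in both channels it was 0.38 and 0.19. The SD in CPE exceeded that in the reference for 6 of the 8. The exceptions were Steap1, with an SD of 0.10 in CPE and 0.34 in the reference, and Slc31a1, with 0.41 and 0.45. At the other tested probes the SD in CPE was 0.15 for Steap1, 0.63 for Steap2 and 0.21 for Atp7a. It was 1.13 for Slc31a1, 0.75 for Slc31a2 and 0.29 for Ccs. Those of Steap2 and Atp7a were not well above background in every CPE sample. The members were not matched to all probes by intensity, so nothing is read from their smaller SD. The CPE over reference ratio of the median SDs was 1.45 for the members and 1.96 over all probes; without mouse 3 it was 2.36 and 2.96. Without mouse 2 it was 1.4 and 1.39, and with each channel centred on its median 2.71 and 2.72, values that lay close together.

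The 5 genes whose ratios were most like those of Steap1 were found by the Euclidean distance between the log2 ratios of the 3 mice. The search ran over the 11423 other genes with a symbol that were ranked with Steap1 above. The nearest 5 are given here. They were Cul4b (mean 4.58, distance 0.55), Dynlrb2 (4.42, distance 0.67), Prlr (4.38, distance 0.71), Cyb561 (4.38, distance 0.73) and Tbc1d9 (4.33, distance 0.84). Cul4b encodes a scaffold of a ubiquitin ligase and Prlr the prolactin receptor. Cyb561 encodes a cytochrome b561, a membrane protein that passes electrons from ascorbate, and like the STEAP proteins it is a transmembrane haem protein.

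Other genes of copper and iron handling were counted in 5 lists, which were chosen with earlier results of these data known. Most genes named from the lists were picked for their large ratios. An adjusted p printed for a listed gene, Steap4 included, only labels its ratio by the rule used for all genes. It is no evidence for that ratio. Of 51 listed genes 44 were tested, 8 were higher and 7 lower in CPE, and their median log2 ratio was 0.069. Over all 18280 named genes tested, 7.93% were higher and 11.0% were lower. Nothing is read from that difference or from the counts per list below. With median centring, which moves the median of all ratios up by 0.13, 12 were higher and 6 lower. Single genes moved by more or less than that median. Atox1 went from 1.35 to 2.17 and Mt2 from -3.31 to -2.37, while Atp7b went from -0.12 to -0.18. Over all probes 1833 of the 4462 past the threshold were higher in CPE (41.1%), and with median centring 67% of 5585.

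Among the 7 other reductases, 3 were higher and 0 lower. They were Cyb561 at 4.38 ± 0.22 (adjusted p = 6.79e-06), Cyb561d2 at 1.56 ± 0.42 (adjusted p = 0.000777) and Steap4 (above), each higher in all 3 mice. Frrs1, a ferric reductase, stood at 0.75 ± 0.27 and did not reach 2-fold. Of the 8 tested genes for copper delivery to mitochondria, 0 passed. The values of Cox11 (0.69), Cox17 (-0.52), Sco1 (0.35) and Slc25a3 (-0.31) were the farthest from 0, and those of Cox17 and Slc25a3 turned to 0.23 and 0.48 with median centring.

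Of 12 tested copper enzymes 3 were higher and 1 was lower. Moxd1, a monooxygenase related to dopamine beta-hydroxylase, stood at 2.78 ± 0.39 (adjusted p = 4.72e-05), the amine oxidase Aoc3 at 1.20 ± 0.54 (adjusted p = 0.0043) and the lysyl oxidase Loxl3 at 1.05 ± 0.52 (adjusted p = 0.00693). Without mouse 2 neither Aoc3 (0.94) nor Loxl3 (0.87) reached 2-fold. Tyr, the tyrosinase of pigment cells and the 1 lower gene, did not stand well above background in the CPE of any mouse. It was tested only because the reference stood well above background. In CPE it was at least 4.8-fold lower, and no p is given for it.

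The metallothioneins, which bind copper and zinc, went in opposite directions. Mt3 had log2 ratios of 3.56, 2.87 and 3.31 and was higher in CPE (adjusted p = 2.11e-05). Mt1 had -2.21, -2.51 and -2.39 (adjusted p = 4.16e-05) and Mt2 -3.23, -3.62 and -3.07 (adjusted p = 1.6e-05), and both were lower in all 3 mice. All 3 lay in the high class of CPE, from the 97.1 percentile for Mt1 to 99.6 for Mt3. Cutc, the other gene of that list that was lower, was named after its value was seen and stood at -1.08 ± 0.34 (adjusted p = 0.00279), but it did not pass without mouse 1 (-0.89), without background correction (-0.99) or with median centring (-0.66). App, a copper-binding membrane protein, had -0.37, -2.76 and -0.41 and did not pass (adjusted p = 0.0642). It passed without mouse 1, at -1.59, and stood at -0.39 without mouse 2.

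Of the 7 genes that act with STEAP3 in the transferrin cycle, 3 were lower and 1 was higher in CPE. Transferrin itself, Trf, stood at -3.04 ± 0.75 (adjusted p = 0.000149), the transferrin receptor Tfrc at -1.92 ± 0.22 (adjusted p = 0.000122) and the metal importer Slc39a8 at -1.78 ± 0.48 (adjusted p = 0.00054). Mcoln1, a channel that releases iron from endosomes and lysosomes, stood at 1.52 ± 0.35 (adjusted p = 0.00062). Trf still lay at the 98.5 percentile of CPE intensity.

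**Figure D3:**
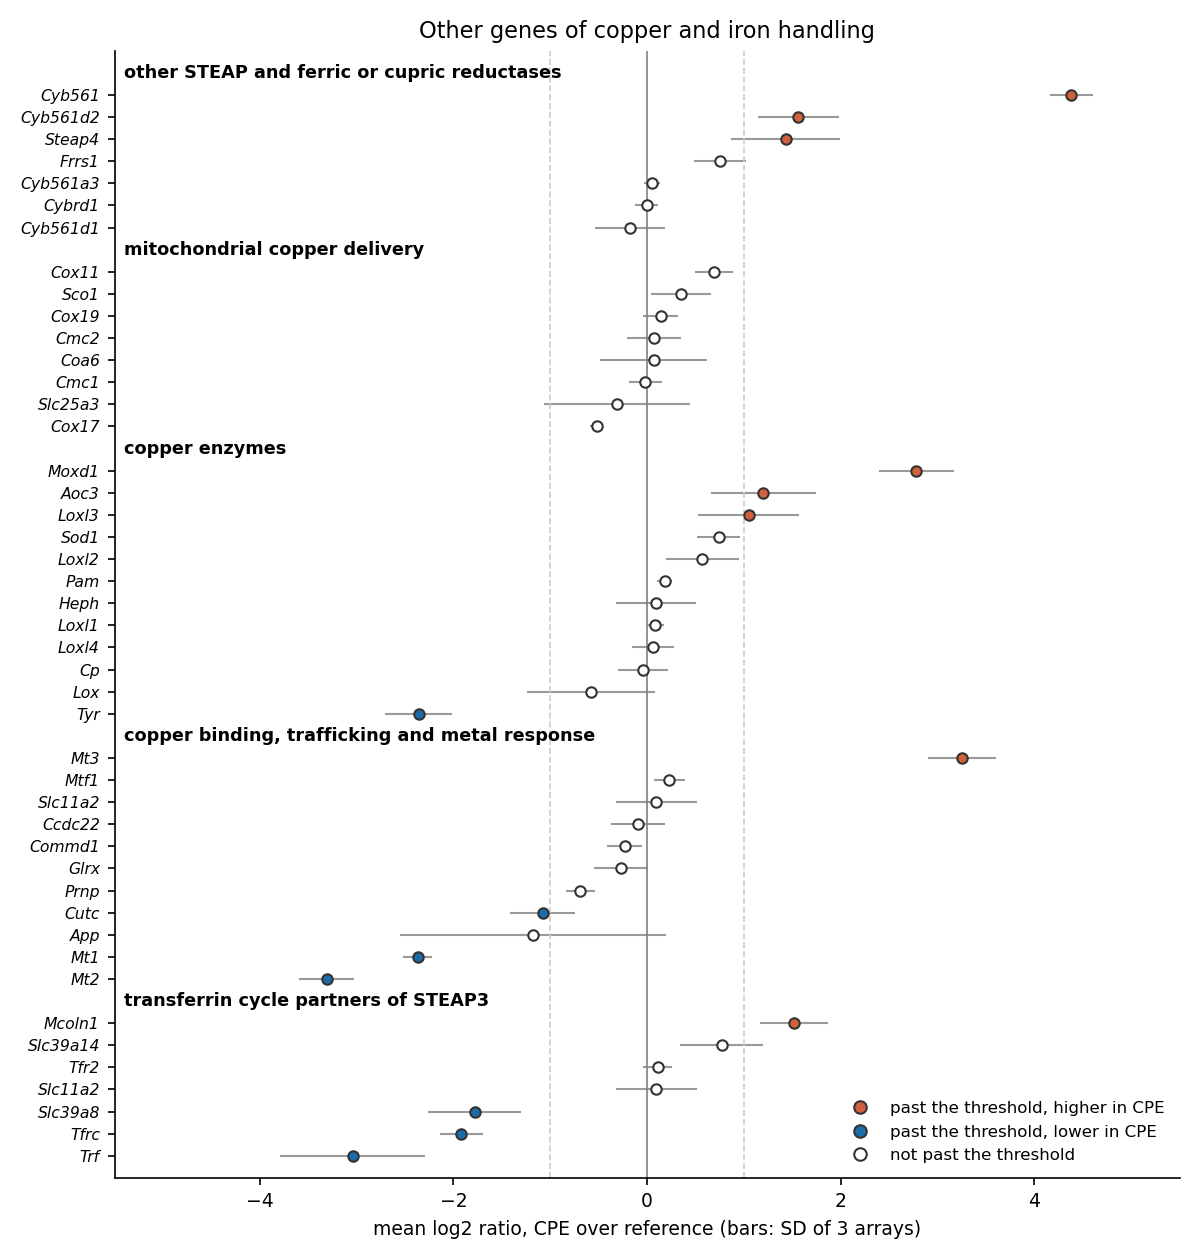
Mean log2 ratio of CPE over reference (x axis, bars are the SD of 3 arrays) of the tested genes of each list of copper and iron handling, by the brightest probe; filled points passed the threshold, red higher and blue lower in CPE, and dashed lines mark 2-fold. Mt3 lies at 3.25 and Mt1 and Mt2 at -2.37 and -3.31, and no gene of mitochondrial copper delivery passed. Slc11a2 is in 2 lists.

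**Figure D4:**
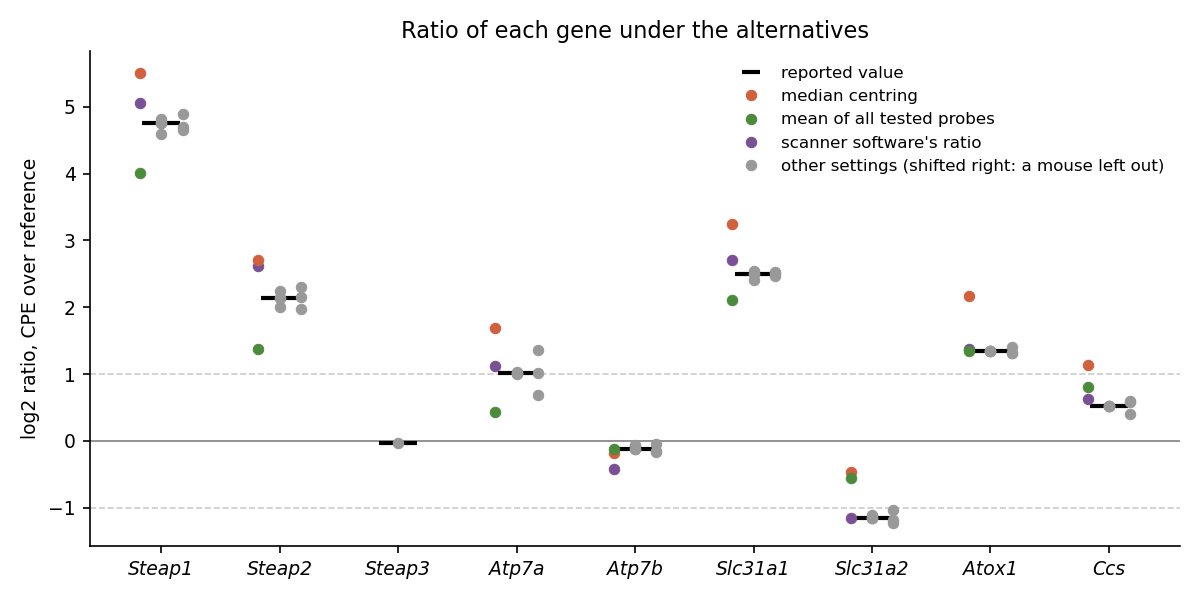
Log2 ratio of CPE over reference (y axis) of the 9 members, as reported (black bar) and under the alternative settings (points); points shifted to the right leave out 1 mouse, and dashed lines mark 2-fold. Each gene keeps its sign, and median centring raises every tested member but Atp7b; Steap3, too dim to test, has 1 alternative value.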

How the data were processed

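The samples were 3 arrays of laser-dissected mouse CPE, each against 1 common RPE/choroid RNA. The authors extracted the deposited scanner tables with version 9.5.3.1 of Agilent Feature Extraction, and they hold the intensity of each spot in both channels, background intensities and flags, and, per the file headers, the log10 ratio of the processed red over green intensity. A deposited table holds values on a log2 scale, which the authors normalized between arrays with limma. These followed the CPE level (rank correlation 0.9985, 0.9976 and 0.9989 on the 3 arrays) and not the ratio (0.254, 0.201 and 0.142). Its background correction is not given in the sources used here.

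R 4.3.3 and limma 3.58.1 were used. Mean intensities were corrected with normexp (offset 50) on the local background, normalized within arrays by loess and between arrays by Aquantile, and spots of a probe were averaged. Control spots were left out of the loess fit. When spots were averaged, after normalization, control and outlier spots were left out. A probe was tested if 1 channel or both stood well above background on every array, which left 25841, and the fit was made with lmFit and eBayes against 0 with Benjamini-Hochberg adjustment over all of them, checked first on simulated data. The 3 mice are separate animals. Percentiles used uncorrected CPE intensities after Aquantile. Of all probes 57% took their gene name through an accession in the RefSeq table, and the others kept that of the scanner file. Probe positions are on mm8, and exons are not given. The number of arrays limits the precision.

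The members, lists and tests were chosen with earlier results of these data known. Named are all members, Steap4, up to 4 genes per list with the largest absolute mean ratio, and the 5 genes nearest to Steap1. For Tyr the bound sets the reference mean against the CPE mean of, per array, the higher of its own level and the lowest level of a probe well above background. Alternatives changed the background correction, the source of the ratio, the normalization, the dim-probe filter, the probe that stands for a gene, and the mice used. The background surface, and the SDs with a mouse left out, were added after the data were seen. Protein sequences were not used here.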

Additional observations from a re-analysis of the deposited data

How the results depend on the processing

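Over the alternatives, 73 of 81 member ratios kept their direction and their side of the threshold, 7 lost the threshold (5 of Atp7a, 2 of Slc31a2) and 1 gained it (Ccs). The members were chosen on this contrast, so these counts describe the settings and support nothing. Steap3 could be fitted only with no filter on dim probes, at -0.032. Among the named genes of the lists, 176 of 188 values kept their call, 8 lost and 4 gained it. Beyond the values given with each gene, Atp7a stood at 0.43 and Slc31a2 at -0.55 as means of all tested probes, and the count of members lower in CPE was 0 there and with median centring. Loxl3 did not pass in 4 alternatives (0.87 to 0.99). Frrs1 (1.25) and Cox11 (1.31) passed with median centring, and App (-1.18) with probes measured in both channels.

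With the scanner software's ratio 6762 probes passed, 2850 of them higher in CPE, and with median centring 3743 were higher. With 1 mouse left out in turn, 4037 to 5315 probes passed, 4 to 5 members were higher, and the SD ratio ran from 1.38 to 2.36 for the members and from 1.39 to 2.96 for all probes. It was 1.65 when both channels were quantile normalized together and 2.71 when each was centred on its median. The high class held 4 members when only probes well above background in CPE were ranked, and 3 with the mean percentile of all probes. The causes were not tested. No paired analysis was possible because the samples form 1 group, with no other group to share replicate numbers; each ratio itself pairs CPE and reference on 1 array.

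The limits are 3 mice, 1 dye orientation, 1 common reference RNA and single probes that disagree within a gene. Dim genes such as Steap3 and Atp7b have no firm level here.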

Other observations

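At the 3′ probe of Slc31a1 the normalized log2 intensity in CPE was 12.07, 10.22 and 12.28 in mouse 1, 2 and 3, with 9.67, 9.73 and 10.03 in the reference. The brightest probe, 1555 bases away, read 12.80, 12.87 and 12.14 in CPE. Mouse 2 was thus the lowest at the 3′ probe and the highest at the brightest probe of the same gene. At the brightest Atp7a probe mouse 2 read 10.91, below 12.18 and 11.84, with 10.49, 10.57 and 10.82 in the reference. App also had its lowest ratio in mouse 2, at -2.76. These probes were named after their values were seen. Elsewhere mouse 2 had the highest ratio, as at the brightest probes of Ccs (0.77) and Frrs1 (1.01). Each probe is a single reading per mouse, and the difference of mouse 2 from the other mice was not tested.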
